A study of Mus musculus with 8 samples.

Results

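Cytochrome P450 genes were followed through polyA RNA of nuclear and cytoplasmic fractions of mouse liver and of MIN6, a cell line from a mouse insulinoma that stands in for pancreatic beta cells. The genes were chosen by name alone, as those of the Cyp1, Cyp2, Cyp3 and Cyp4 families and of the Cyp7, Cyp8, Cyp17, Cyp21, Cyp26, Cyp27 and Cyp39 families, with names marked as pseudogenes left out. This gave 90 of the 26520 genes of the table. Of these, 74 were above 0 in at least 1 of the 8 libraries and 16 were listed at 0 in all of them.

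The study asks which mRNAs are held in the nucleus, and each fraction of either tissue has 2 libraries. Liver came from mice labelled C57BL/6 in 1 library and with another final number in each of the other 3, and no age, sex, allele or treatment is given for any group. For liver nuclei, chromatin was removed and the soluble RNA kept, and liver cytoplasmic RNA was the supernatant of the same kind of sucrose preparation. MIN6 nuclei were collected through a sucrose cushion after lysis with a mild detergent. The source field of each MIN6 library names the opposite fraction to its title. Titles were followed, and the nuclear RNAs Neat1, Malat1 and Meg3 were all higher in both MIN6 libraries titled nuclear than in both titled cytoplasmic. The labels do not say whether libraries came from separate animals or cultures, so p-values measure the spread between these libraries, which may be technical.

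P450 enzymes are haem proteins, most of them anchored in the endoplasmic reticulum and some in mitochondria, that insert an oxygen atom into their substrate with electrons from a redox partner. In the liver, families Cyp1 to Cyp3 clear drugs, toxins and steroids, Cyp4 enzymes oxidise fatty acids and eicosanoids, and a small group converts cholesterol to bile acids. Many are made at high level by hepatocytes around the central vein, and their genes lie in clusters of recent tandem copies.

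Values are FPKM as deposited, which are fragments per kilobase of transcript scaled by library size. Their sums differed between libraries, at 176592 and 104923 in liver nuclear against 1219630 and 859210 in liver cytoplasmic libraries, so that the deposited scale is not common to both fractions. On it, the median of all 10353 genes tested in liver lay at -1.64 for nuclear minus cytoplasmic log2(FPKM + 1). Each count of calls is therefore given on the deposited scale and again after every library was centred on its median gene. A gene was called at an adjusted p under 0.05 in limma. Depth can only be estimated here. For a 2 kb transcript, 3 reads were worth an estimated 0.392 and 0.292 FPKM in the nuclear and 3.70 and 2.67 FPKM in the cytoplasmic libraries of liver, which covers counting error only. Low values are thus less certain in the cytoplasmic libraries.

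In liver, P450 genes were called cytoplasmic at a share near that of all genes on the deposited scale, and their values ranged widely between families, from 12.7 and 24.03 against 1394 and 1520 FPKM for Cyp2a5 to 123 and 90.05 against 61.8 and 22.6 for Cyp4f15 (nuclear against cytoplasmic). Of the 90 genes, 73 were above 0 in a liver library and 65 passed the filter of a mean of at least 1 FPKM. Of these 65, 38 were called cytoplasmic, 3 were called nuclear and 24 were not called. Among all genes tested, 50.2% were called cytoplasmic and 2.93% nuclear. After centring, 21 members were called cytoplasmic and 7 nuclear, beside 13.9% and 9.51% of all genes. Rescaling every library to the same sum turned the balance, with 7 members called cytoplasmic and 13 nuclear of 69 tested. It did so for the whole table, with 562 genes called cytoplasmic and 2141 nuclear of 12163 tested. All 21 centred cytoplasmic calls and all 3 deposited-scale nuclear calls were made in both the deposited and the centred fit. With either liver nuclear library left out, no gene of the table was called on either scale, and an unadjusted p under 0.05 was then met by 34 members in the cytoplasmic and 3 in the nuclear direction on the deposited scale. The members' median difference was -2.09, and it was -3.39 over the 47 members with a mean of at least 10 FPKM, where the median of all 4510 such genes was -2.69. At a mean of at least 100 FPKM the 23 members had a median of -3.85 and all 762 genes one of -4.14, with 87.5% of all called cytoplasmic and 17 of the 23 members. Between 200 and 500 FPKM the 9 members had a median of -2.33 and all 242 genes one of -4.44, and between 500 and 1000 FPKM the 5 members had -1.96 and all 71 genes -4.48. These contrasts were not tested. In all, 45 members were higher in both cytoplasmic than in both nuclear libraries, 5 were the other way round and 15 overlapped, against 71.0% and 5.77% of all genes tested for the first 2 patterns.

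**Figure D1:**
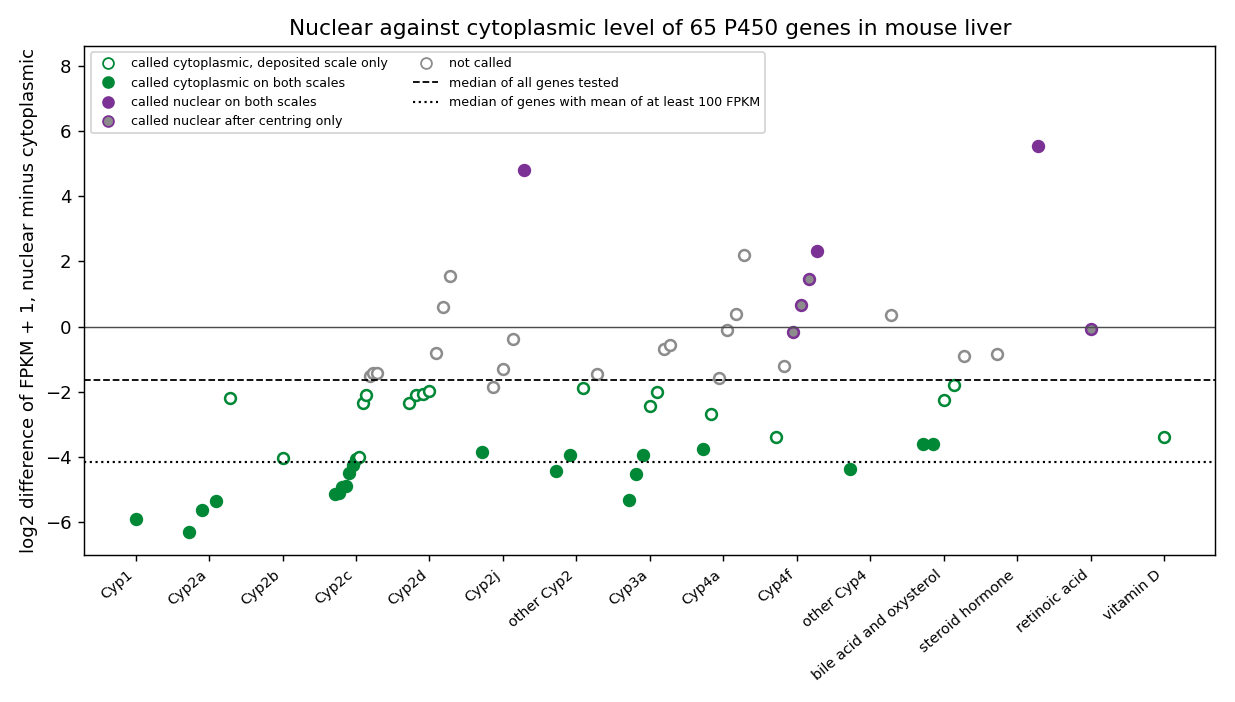
Difference of log2(FPKM + 1), nuclear minus cytoplasmic, for the 65 P450 genes tested in liver, by class (1 point a gene; colours and fill give the call on the deposited scale and after centring). The dashed line is the median of all genes tested (-1.64) and the dotted line that of genes at a mean level of 100 FPKM or more (-4.14); Cyp1, Cyp2a and most Cyp2c genes lie low, Cyp4f genes high. Points of genes listed at 0 in both cytoplasmic libraries (Cyp21a1, Cyp2j9, Cyp4f16) depend on the 1 FPKM added.

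The members together took 2.75% and 2.42% of summed FPKM in liver nuclear and 2.14% and 2.41% in liver cytoplasmic libraries, so their share was close in all 4. Which genes made up that share differed. In the cytoplasmic libraries Cyp2e1, which oxidises ethanol and paracetamol, was the highest member and held 27.8% and 25.5% of the members' sum. In the nuclear libraries the highest member was Cyp4a14 in replicate 1, with 19.0% of the sum, and Cyp3a25 in replicate 2, with 14.2%. Cyp4a genes together held 45.7% and 25.8% of the members' sum in nuclear libraries against 8.89% and 3.69% in cytoplasmic libraries. The Cyp2a genes went the other way, with 0.690% and 1.76% of the nuclear and 9.31% and 11.7% of the cytoplasmic sum.

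**Figure D2:**
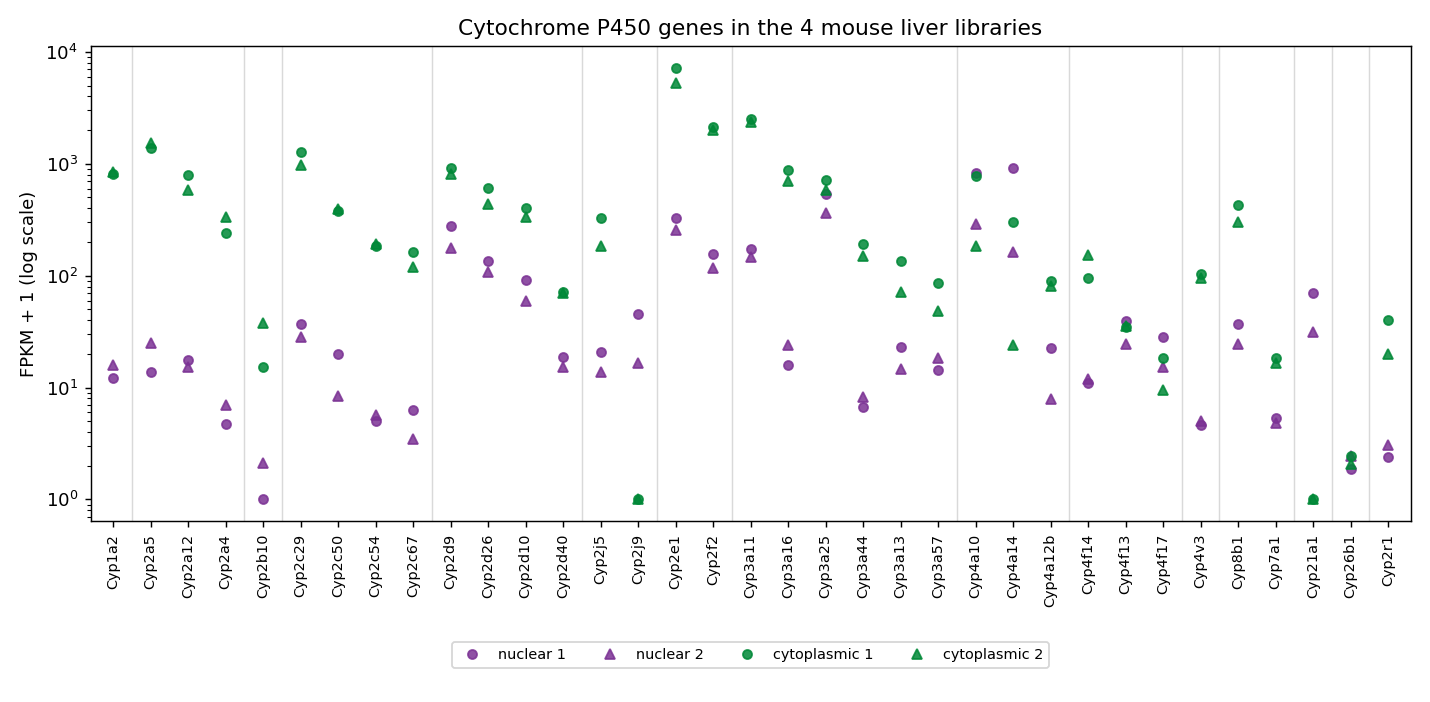
FPKM + 1 on a log axis in each of the 4 liver libraries for the 35 P450 genes named by rule, grouped by class (purple nuclear, green cytoplasmic; circles replicate 1, triangles replicate 2). Most genes show green points far above purple ones; Cyp4a14, Cyp2j9 and Cyp21a1 do not, and Cyp3a25, Cyp4a10 and Cyp4f13 have the fractions close together.

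The most cytoplasmic members were the xenobiotic enzymes of the Cyp1a and Cyp2a groups. Cyp2a5, the coumarin hydroxylase (chr7:26835305-26843548, plus strand, GRCm38), stood at 12.7 and 24.03 FPKM in nuclear and at 1394 and 1520 in cytoplasmic libraries. The fractions lay far apart, and the log2 difference was -6.30 (SE 0.495, limma adjusted p = 0.00346). Cyp2a4, a testosterone hydroxylase, had 3.68 and 6.05 FPKM in nuclear and 240.3 and 331 in cytoplasmic libraries, a difference of -5.62. Cyp2a12, with steroid substrates, had 16.7 and 14.4 against 786 and 578 FPKM, a difference of -5.35. The fourth gene of the class, Cyp2a22, was low, and it kept its cytoplasmic call on the deposited scale only. Cyp1a2, which oxidises caffeine and aromatic amines, was at 11.2 and 14.9 FPKM in nuclear and at 815 and 850.4 in cytoplasmic libraries, a difference of -5.90 (SE 0.431, limma adjusted p = 0.00346). Its partner gene Cyp1a1, the classical target of the dioxin receptor, was above 0 in 1 nuclear library only, and Cyp1b1 was listed at 0 in liver.

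Cyp2a5 and Cyp2a4 are near copies, and how far reads can tell them apart bears on both values. Their coding sequences of 1482 bases differ at 23 positions (98.4% identity), and 40.8% of the 50-base words of the Cyp2a5 transcript occur in transcripts of other genes, most of them in Cyp2a4. The first 75 coding bases show 1 such position, with capitals at the base that differs, from the GENCODE M21 transcripts (GRCm38, both on chromosome 7, plus strand):

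Cyp2a5: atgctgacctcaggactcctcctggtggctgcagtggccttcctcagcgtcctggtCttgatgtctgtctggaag

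Cyp2a4: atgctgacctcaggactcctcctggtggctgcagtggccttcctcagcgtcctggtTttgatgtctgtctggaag

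Reads that fall between such positions could have come from either gene, and the deposited values do not say how shared reads were split. Both genes were far higher in the cytoplasmic libraries, so a split between them does not bear on the direction of their sum. The pair also matched upstream, where the 300-base promoter windows from RefSeq (GRCm38.p6) were 97.7% identical. The 250 bases before each start site are shown because the pair moved together, with capitals at matches to TATAAA and GTTAAT, the second being a core of the motif of HNF1 factors:

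Cyp2a5: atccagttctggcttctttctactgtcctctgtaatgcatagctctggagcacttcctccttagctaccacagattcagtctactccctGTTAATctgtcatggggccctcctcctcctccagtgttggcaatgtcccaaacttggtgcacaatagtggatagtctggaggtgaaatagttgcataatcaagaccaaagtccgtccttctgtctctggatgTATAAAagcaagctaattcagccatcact

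Cyp2a4: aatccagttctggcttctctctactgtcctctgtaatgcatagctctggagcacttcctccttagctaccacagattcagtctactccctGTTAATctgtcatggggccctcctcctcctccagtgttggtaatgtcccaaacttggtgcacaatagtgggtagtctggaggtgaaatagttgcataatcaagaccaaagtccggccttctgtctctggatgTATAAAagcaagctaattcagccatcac

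Both strands were searched for TATAAA and GTTAAT in 300-base windows. TATAAA occurred in 15.7% of all 27025 genes with a promoter entry and in 32 of the 70 members with one. All 4 Cyp2a genes and 10 of 13 Cyp2c genes were among the 32. Members include near copies, so they are not separate cases for this or the other motifs. GTTAAT occurred in 8.24% of all and in 9 of the 70 members. Of 3 other motifs searched on both strands, AGGTCA, a binding element of nuclear receptors, occurred in 25.7% of members and 18.1% of all genes, GCGTG, the core bound by the dioxin receptor, in 20% and 35.2%, and TTATGTAA in 0 of 70 members and 1.11% of all genes.

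Cyp2c genes, which oxidise drugs and arachidonic acid, lie as a group on chromosome 19. Of 13 tested, 10 were called cytoplasmic and none nuclear, 7 of them after centring too, and the class median was -4.07. Among all genes tested 50.2% were called cytoplasmic, 13.9% after centring, and at a mean of at least 10 FPKM 73.2% on the deposited scale. Cyp2c29 was the highest, at 35.8 and 27.1 FPKM in nuclear against 1262 and 973 in cytoplasmic libraries, a difference of -5.11. Cyp2c54 had 4.004 and 4.71 against 182 and 191 FPKM, a difference of -5.13. Cyp2c50 had 19.0 and 7.40 against 377 and 395 FPKM, and Cyp2c67 had 5.32 and 2.49 against 161.5 and 118. In all 4 of these genes every cytoplasmic library lay far above every nuclear one. The 3 tested genes with no call, Cyp2c39, Cyp2c40 and Cyp2c69, were above 0 in cytoplasmic replicate 1 alone, at 6.21 to 7.11 FPKM. Cyp2c67 and Cyp2c40 share words with each other and with Cyp2c69, so reads of these genes may have been split.

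The highest members of the cytoplasmic libraries belonged to other Cyp2 groups and to Cyp3a. Cyp2e1 (chr7:140763739-140774987, plus strand) was at 324 and 258 FPKM in nuclear and at 7259 and 5271 in cytoplasmic libraries, a difference of -4.42 (SE 0.449, limma adjusted p = 0.00346). Cyp2f2, which activates naphthalene, was at 156 and 116 against 2130.3 and 1997 FPKM, a difference of -3.93. Cyp3a11, the main drug-metabolising Cyp3a of mouse liver, was at 173 and 145 against 2504 and 2353 FPKM, also a difference of -3.93. These differences are close to the median of -4.14 for all genes at 100 FPKM or more, so they do not set the genes apart from others of their level. Cyp2b10, the target gene of the receptor CAR, was at 0 and 1.13 FPKM in nuclear and at 14.1 and 36.8 in cytoplasmic libraries. It was called on the deposited scale only, and the other 4 Cyp2b genes were listed at 0 in liver.

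Within Cyp3a the genes differed widely. Of 7 tested, 5 were called cytoplasmic, 3 of them after centring too. The share of all genes called cytoplasmic was 50.2%, and 13.9% after centring. It was 73.2% on the deposited scale at a mean of at least 10 FPKM. Cyp3a16 had 14.9 and 22.8 FPKM in nuclear and 875 and 694 in cytoplasmic libraries, a difference of -5.32. Cyp3a44 had 5.71 and 7.26 against 192 and 148 FPKM, a difference of -4.51. The coding sequences of Cyp3a16 and Cyp3a44 are 92.8% and 94.9% identical to that of Cyp3a11, so their values may hold reads of Cyp3a11. Cyp3a13 and Cyp3a57 were nearer the median gene, at -2.42 and -1.996, and neither was called after centring. Cyp3a25 stood apart, at 541 and 361 FPKM in nuclear against 714 and 586 in cytoplasmic libraries (chr5:145977194-146009618, minus strand). Its cytoplasmic libraries were both higher than its nuclear ones but by little, with a difference of -0.55 (SE 0.460, limma adjusted p = 0.353). After centring its difference was 1.23, toward the nucleus, with an adjusted p of 0.0630 in limma.

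Cyp3a25 shares 97.5% of its coding sequence with Cyp3a59 and 93.9% with Cyp3a57. Bases 22 to 96 of the 3 coding sequences are shown for that reason, with capitals where they are not all alike (GENCODE M21, chromosome 5):

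Cyp3a25: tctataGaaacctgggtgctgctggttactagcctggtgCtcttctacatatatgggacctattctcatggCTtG

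Cyp3a59: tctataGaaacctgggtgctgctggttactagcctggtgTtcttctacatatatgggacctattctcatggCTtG

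Cyp3a57: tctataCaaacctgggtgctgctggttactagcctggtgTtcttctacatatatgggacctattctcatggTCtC

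Cyp3a59 was at 8.68 and 8.26 FPKM in nuclear and at 7.37 and 26.9 in cytoplasmic libraries, overlapping and not called. The 3 sequences are not all alike at 5 of these 75 positions and at 108 of 1509 in all. Cyp3a57 was at 13.4 and 17.3 against 85.3 and 47.6 FPKM.

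Cyp2d genes, a class with many drug and steroid substrates, lay near the median gene. Of 7 tested, 4 were called cytoplasmic on the deposited scale and none after centring, beside 50.2% and 13.9% of all genes tested. Cyp2d9, a testosterone hydroxylase of male liver, was at 275 and 175 FPKM in nuclear and at 917.5 and 804 in cytoplasmic libraries, a difference of -1.96. Cyp2d26 had 135 and 108 against 611 and 437.5 FPKM, Cyp2d10 had 89.7 and 58.1 against 401 and 336, and Cyp2d40 had 17.7 and 14.2 against 71.0 and 69.1. The fractions did not overlap in any of these 4, and their differences were between -2.33 and -1.96. Cyp2d26 and Cyp2d10 had a mean between 200 and 500 FPKM over the 4 libraries, where the median difference of all 242 genes was -4.44. That contrast was not tested.

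The fatty acid hydroxylases of the Cyp4a and Cyp4f groups were the least cytoplasmic of the large classes. The class medians were -0.84 over 6 Cyp4a genes and 0.25 over 6 Cyp4f genes tested. Cyp4a14 and Cyp4a10 are target genes of the fatty acid receptor PPARA. Cyp4a14 (chr4:115486200-115496142, minus strand) was at 922 FPKM in nuclear replicate 1 and 161 in nuclear replicate 2, and at 298 and 23.2 in the cytoplasmic libraries. Replicate 1 was far above replicate 2 in both fractions, the fractions overlapped, and the difference was 2.18 (SE 1.43, limma adjusted p = 0.246). Within each replicate number the nuclear value was the higher, and a fit with a replicate block called Cyp4a14 nuclear. The labels do not show that the numbers pair the libraries. Cyp4a10 was at 826 and 288 FPKM against 771 and 184, a difference of 0.37 that was not called either (limma adjusted p = 0.742). After rescaling to equal sums Cyp4a10 was called nuclear, at 3.28 (limma adjusted p = 0.0441).

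The same pattern ran through the neighbouring genes on chromosome 4. In nuclear libraries replicate 1 exceeded replicate 2 by 5.74-fold for Cyp4a14, 2.87-fold for Cyp4a10, 2.27-fold for Cyp4a32 and 2.20-fold for Cyp4a31. In cytoplasmic libraries it did so by 12.8-fold, 4.18-fold, 4.90-fold and 3.20-fold. Over all genes tested the median log2 difference of replicate 1 over 2 was 0.32 in nuclear and 0.41 in cytoplasmic libraries. Cyp4a12a and Cyp4a12b, known as genes of male liver, were 2.08-fold and 3.12-fold higher in replicate 1 in nuclear libraries but level in the cytoplasmic ones, with 257 and 246 FPKM and 88.85 and 79.6 FPKM there. Both of these were called cytoplasmic, Cyp4a12a after centring too. Red blood cell genes also stood higher in replicate 1, and the summed FPKM of the 5 in the table was 27.97 and 6.19 in nuclear and 2292 and 574 in cytoplasmic libraries. Whether the 2 sets of differences are connected was not tested.

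**Figure D3:**
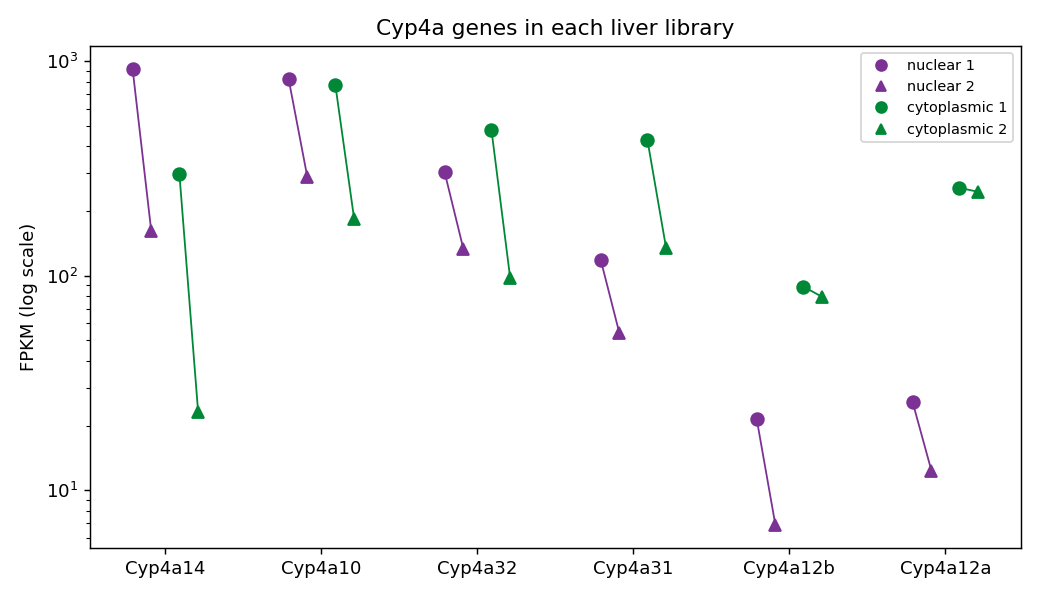
FPKM on a log axis of the 6 Cyp4a genes in each liver library (purple nuclear, green cytoplasmic; lines join replicate 1, a circle, to replicate 2, a triangle, of the same fraction). For Cyp4a14, Cyp4a10, Cyp4a32 and Cyp4a31 replicate 1 lies above replicate 2 in both fractions, by 2.20-fold to 12.8-fold.

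Cyp4a10, Cyp4a32 and Cyp4a31 have coding sequences of 1527 bases that are between 96.0% and 97.2% identical. Since they moved together, the first 75 bases are shown, with capitals where the 3 are not all alike (GENCODE M21, chromosome 4, plus strand):

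Cyp4a10: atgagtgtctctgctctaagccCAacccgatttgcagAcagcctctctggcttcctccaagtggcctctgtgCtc

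Cyp4a32: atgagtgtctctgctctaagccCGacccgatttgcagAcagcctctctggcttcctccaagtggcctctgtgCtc

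Cyp4a31: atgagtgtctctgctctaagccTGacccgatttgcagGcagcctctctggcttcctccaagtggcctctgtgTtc

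Reads of Cyp4a10 could in part have been given to Cyp4a32, since 46.8% of the 50-base words of Cyp4a32 occur in other transcripts. Cyp4a14 shares 0.245% of its words with other annotated transcripts.

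Cyp4f enzymes hydroxylate leukotrienes and other fatty acids. Of 6 tested, 1 was called nuclear and 1 cytoplasmic on the deposited scale, and after centring 4 were called nuclear and none cytoplasmic. The shares of all genes tested were 2.93% nuclear and 50.2% cytoplasmic, and after centring 9.51% and 13.9%. Cyp4f15 was at 123 and 90.05 FPKM in nuclear and at 61.8 and 22.6 in cytoplasmic libraries, with no overlap, a difference of 1.47 (limma adjusted p = 0.0981) and after centring 3.25 (limma adjusted p = 0.0154). Cyp4f13 was at 38.7 and 23.6 against 33.5 and 34.3 FPKM and Cyp4f17 at 27.1 and 14.3 against 17.3 and 8.42. Both of these overlapped between fractions. Neither was called on the deposited scale, and both were called nuclear after centring. Both were also called nuclear after rescaling to equal sums, at 2.71 and 3.51 (limma adjusted p = 0.0256 and 0.0197). Cyp4f14, a leukotriene hydroxylase next to Cyp4f13 on chromosome 17, was the exception at 10.01 and 11.02 FPKM in nuclear and 93.5 and 153 in cytoplasmic libraries, a difference of -3.39 (limma adjusted p = 0.00522). Among other Cyp4 genes, Cyp4v3 had 3.63 and 3.99 against 102 and 94.2 FPKM. Cyp4v3 was called cytoplasmic on the deposited scale and after centring, but not after rescaling to equal sums (limma adjusted p = 0.0692). Cyp4f15 was picked once its values had been seen.

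The 3 members called nuclear were all listed at 0 in both cytoplasmic libraries. Cyp21a1, the adrenal hydroxylase of glucocorticoid and mineralocorticoid synthesis (chr17:34801348-34804561, minus strand), was at 68.4 and 30.1 FPKM in nuclear libraries (limma adjusted p = 0.00346). Cyp2j9, of a group that oxidises arachidonic acid (chr4:96568429-96591578, minus strand), was at 44.8 and 15.7 FPKM (limma adjusted p = 0.00457). Cyp4f16 was at 5.74 and 2.64 FPKM (limma adjusted p = 0.0152), where 3 reads would give 3.30 and 2.39 FPKM in the cytoplasmic libraries. With a group at 0 the fitted difference depends on the 1 FPKM added, so no fold is given. Markers of adrenal and gonadal steroid cells were at or near 0 in liver: Cyp11a1, Cyp11b1 and Nr5a1 were listed at 0 in all 4 libraries and Star was at 2.54 FPKM or less. Of the Cyp21a1 transcript, 23.7% of the 50-base words occur elsewhere, most of them in its pseudogene, and 4.77% of its exon bases lie opposite exons of Tnxa. A gene nearby on the same strand, Stk19, was also called nuclear, at 33.1 and 23.3 against 5.94 and 8.70 FPKM (difference 1.81, limma adjusted p = 0.0248), while Dxo and Skiv2l beyond it were not called. Cyp2j9 shares no 50-base word with other transcripts. Both its flanking genes differed from it. Cyp2j5, the highest of the class, was at 19.9 and 12.7 against 325 and 181.5 FPKM and called cytoplasmic, and Cyp2j6 was at 6.24 and 2.29 against 10.7 and 11.3 FPKM and not called.

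Genes of bile acid synthesis were split. Of 5 tested, 4 were called cytoplasmic, 2 of them after centring too. Cyp8b1, the sterol hydroxylase that sets cholic acid output, was at 36.0 and 23.4 FPKM in nuclear and at 425 and 303 in cytoplasmic libraries, a difference of -3.58 (SE 0.478, limma adjusted p = 0.00490). Cyp7b1, the oxysterol hydroxylase, gave -3.58 as well. Cyp7a1, the rate-limiting enzyme, was low at 4.32 and 3.82 against 17.3 and 15.6 FPKM, a difference of -1.78 that lay at the median gene and was not called after centring. Cyp27a1, the mitochondrial sterol hydroxylase, was at 233 and 136 against 367.5 and 300.4 FPKM, with no overlap but no call (difference -0.90, limma adjusted p = 0.174). Of 12 other genes of bile acid synthesis and transport tested, 9 were called cytoplasmic, 7 of them after centring, and none nuclear. Among all genes tested 50.2% were called cytoplasmic, 13.9% after centring. At a mean of at least 10 FPKM the share of all genes on the deposited scale was 73.2%, and at 100 FPKM 87.5%.

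Of the other enzymes of steroids, vitamin D and retinoic acid, Cyp17a1, which makes androgen precursors in mouse gonads, was at 4.15 and 1.55 against 6.47 and 4.72 FPKM and not called. Cyp2r1, a vitamin D hydroxylase, was at 1.397 and 2.09 FPKM in nuclear against 39.1 and 19.1 in cytoplasmic libraries, called on the deposited scale (limma adjusted p = 0.00661). Cyp26b1, which degrades retinoic acid, was at 0.858 and 1.46 against 1.46 and 1.06 FPKM, below the FPKM of 3 reads of a 2 kb transcript in both cytoplasmic libraries, so its call after centring rests on few reads.

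Genes known to differ between the sexes in mouse liver were looked at because sex is not labelled. The 4 genes of the Y chromosome looked at were all above 0 in liver, with sums of 17.6 and 12.3 FPKM in nuclear and 14.2 and 9.96 in cytoplasmic libraries, and at 0 in MIN6. The 4 genes known as higher in males, Cyp2d9, Cyp4a12a, Cyp4a12b and Cyp7b1, were all above 0 and all called cytoplasmic, 2 of them after centring. Shares of all genes called cytoplasmic were 50.2%, and 13.9% after centring. At a mean of at least 10 FPKM the deposited-scale share was 73.2%. Of 7 known as higher in females, 4 were listed at 0 in liver (Cyp2b9, Cyp2b13, Cyp3a41a and Cyp3a41b). The other genes, Cyp2a4, Cyp3a16 and Cyp3a44, were called cytoplasmic on the deposited scale and after centring. After rescaling to equal sums they were not called (limma adjusted p = 0.0529, 0.0534 and 0.0762). Cyp3a41a and Cyp3a41b are 99.87% identical in coding sequence, and Cyp3a16 and Cyp3a44 are 92.8% and 94.9% identical to Cyp3a11. The values of these near copies depend on how shared reads were split, which is not given.

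Redox partners, haem synthesis genes and regulators of P450 genes were counted in the same liver fit, where 50.2% of all genes were called cytoplasmic. At a mean of at least 10 FPKM that share was 73.2%. After centring, 13.9% of all genes were called cytoplasmic and 9.51% nuclear. Of 8 redox partner genes, 7 were called cytoplasmic and 5 after centring. Por, the common electron donor of the endoplasmic reticulum, was at 76.3 and 33.1 against 909 and 417 FPKM and called on the deposited scale only. The exception was Fdxr, the mitochondrial ferredoxin reductase, at 41.9 and 28.6 against 5.59 and 20.4 FPKM. Fdxr was called nuclear after centring and not on the deposited scale. Of 10 haem genes, 7 were called cytoplasmic, and after centring 3 were cytoplasmic and 1 nuclear. Alas1, the first enzyme of haem synthesis, was not called on either scale (169.8 and 43.8 against 484 and 207.5 FPKM). Of 18 regulators tested, 9 were called cytoplasmic and none nuclear, a share at that of all genes, and after centring 2 were cytoplasmic and 3 nuclear. The receptor CAR, Nr1i3, was at 98.4 and 72.0 FPKM in nuclear against 70.6 and 45.2 in cytoplasmic libraries. Nr1i3 was called nuclear after centring and not on the deposited scale. Of 10 P450 genes outside the chosen families, 4 were tested and 2 called cytoplasmic, 1 of them after centring, with Cyp51, of cholesterol synthesis, at 1.09 and 0.545 against 45.3 and 43.9 FPKM.

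Liver cell markers bear on what these fractions held. Of all genes tested, 50.2% were called cytoplasmic and 13.9% after centring, and at a mean of at least 100 FPKM 87.5% were called on the deposited scale. All 7 hepatocyte genes, Alb among them, were called cytoplasmic, 6 after centring. All 5 markers of hepatocytes around the central vein were called cytoplasmic on both scales, and of 5 markers of hepatocytes around the portal vein 4 were called on the deposited scale and none after centring. Other cell types went less that way, apart from red blood cell genes, with 5 of 5 cytoplasmic and 4 after centring. Of macrophage markers 4 of 6 were called cytoplasmic, of stellate 2 of 3 and of bile duct 1 of 2, with 0 after centring in each. Of 5 endothelial markers 1 was called cytoplasmic, and after centring 0 were cytoplasmic and 2 nuclear. In a tissue lysate fewer cells of a type and less RNA per cell cannot be told apart, and their part in the differences between genes was not tested.

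Across the 65 members the difference between fractions had a Pearson r of -0.42 with log2 level, 0.34 with GC content of the main transcript and 0.22 with exon number. Over all 10282 genes tested with an annotated transcript these were -0.51, 0.10 and 0.20. All points share the same 4 libraries, the members include near copies, and the values are given as a description.

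In MIN6 cells P450 transcripts were nearly absent from the values. The members' share of summed FPKM was 0.0415% and 0.0185% in nuclear and 0.00502% and 0.00776% in cytoplasmic libraries. Of the 90 genes 18 were above 0, and 3 reached the mean of 1 FPKM needed for the test. Cyp2e1 was at 5.79 and 2.10 FPKM in nuclear and at 0.907 and 2.22 in cytoplasmic libraries, overlapping. Cyp4f13 was at 3.90 and 0.751 against 0.324 and 0, and Cyp4f17 at 1.74 and 1.68 against 0.558 and 0.876, both without overlap. None of the 3 was called on the deposited scale, where 11.8% of the 6017 genes tested were called nuclear and 46.1% cytoplasmic and 2 of the 3 had an unadjusted p under 0.05 toward the nucleus. After centring all 3 were called nuclear, beside 26.7% of all genes, with limma adjusted p of 0.0238, 0.0156 and 0.00681. Of 7 hepatocyte markers 4 were above 0 in MIN6, with a summed level of 4.96 and 2.98 FPKM in nuclear and 28.1 and 24.7 in cytoplasmic libraries. Ttr, which beta cells also make, was 2.24 to 27.4 FPKM of that, and Alb, Trf and Fgb were listed at 0 in all 4 libraries.

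Liver and MIN6 nuclei were prepared in different ways, so tissue and preparation cannot be told apart here. The nuclear ratio of Cyp2e1 differed between tissues. It was -4.42 in liver and 0.89 in MIN6, and the interaction over all 8 libraries was -5.31 (SE 0.681, limma adjusted p = 0.0124), meaning more nuclear in MIN6. Of 5315 genes tested for this, 26.6% were called more nuclear in MIN6 and 0.677% more nuclear in liver. Centred, it was -4.00 (limma adjusted p = 0.0286), beside 1.19% of all genes called more nuclear in MIN6 and 1.69% in liver. It lost the call when liver nuclear replicate 2, MIN6 nuclear replicate 1 or either MIN6 cytoplasmic library was left out, at adjusted p of 0.0558 to 0.0796 in limma. Without either MIN6 cytoplasmic library no gene of the table was called. For Cyp4f13 the interaction was -1.50 (SE 0.739, limma adjusted p = 0.148), and for Cyp4f17 it was -0.0023 (SE 0.644, limma adjusted p = 0.999), which do not show that the tissues act alike.

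**Figure D4:**
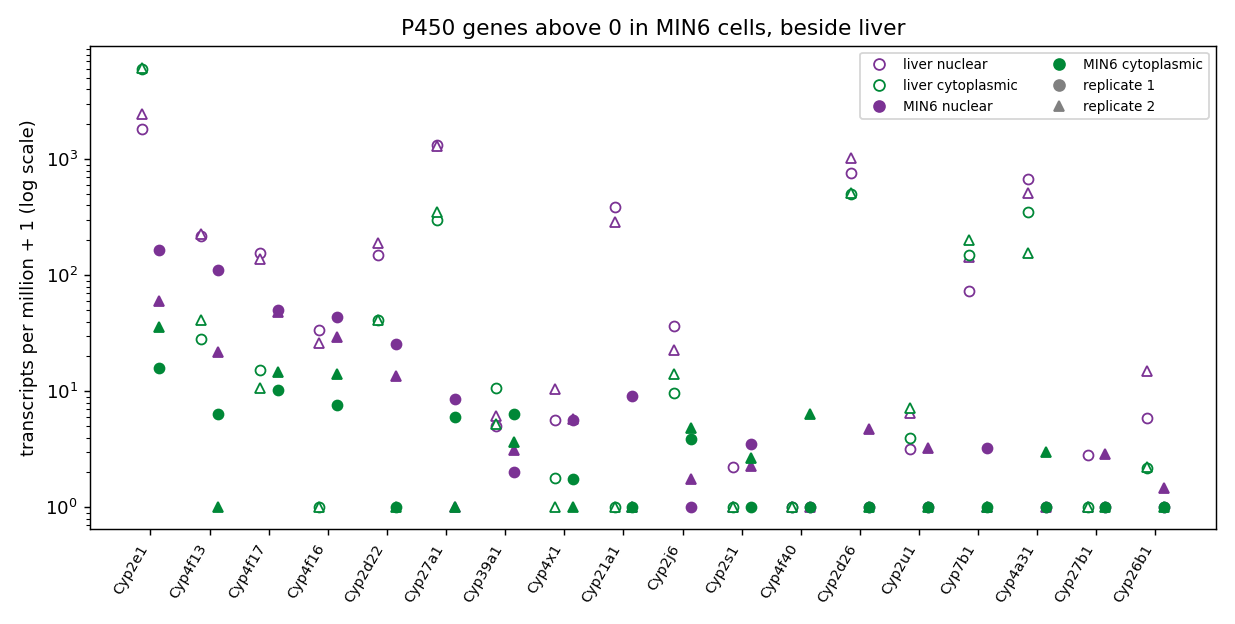
TPM + 1 (FPKM rescaled to a sum of 1000000 a library) on a log axis for the 18 P450 genes above 0 in MIN6, in each liver library (open) and MIN6 library (filled; purple nuclear, green cytoplasmic; circles replicate 1, triangles replicate 2). Cyp2e1 and the Cyp4f genes lead in MIN6, and most other genes there sit at or near 0.

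For levels between tissues, FPKM were rescaled to a sum of 1000000 in each library (TPM). The filter used the mean over all 8 libraries, and 18 of the 90 members were above 0 in any MIN6 library. Members at 0 in MIN6 thus passed through liver alone, which set their direction, so the counts of members are descriptions. Tissue and preparation of the fractions cannot be told apart either. In the cytoplasmic libraries 51 of 63 members tested were higher in liver and 1 in MIN6. Of all 13672 genes, 11.9% and 36.7% were so called. After centring these were 53 and 1 members, beside 18.8% and 16% of all genes. In the nuclear libraries 55 were higher in liver and 0 in MIN6 in limma, beside 19.1% and 18.9% of all genes, and no member had an unadjusted p under 0.05 toward MIN6. After centring the counts were 55 and 0 as well, beside 19.9% and 18.4%. Cyp2e1 was at 5952 and 6135 TPM in liver cytoplasm against 15.0 and 35.0 in MIN6 cytoplasm. The 1 gene higher in MIN6 cytoplasm was Cyp4f16, which was listed at 0 in liver cytoplasm and was at 0.399 and 0.836 FPKM in MIN6 cytoplasm. On the deposited scale no member was called higher in MIN6 cytoplasm.

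Liver promoters often hold the motif CAAAGTCCA, known as a site form of the hepatocyte factor HNF4A, and it was searched on both strands in the RefSeq promoter windows. It occurred in 11 of 70 members and in 0.555% of all 27025 genes with an entry. The 11 matches, each with 10 bases on either side and written on the gene's strand, are shown to let the copies be compared (GRCm38.p6, capitals mark the motif, which lay 36 to 116 bases before the start site):

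Cyp2c40: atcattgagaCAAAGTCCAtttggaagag

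Cyp2c65: gatgttggaaCAAAGTCCActgggaggag

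Cyp2c67: atcattgagaCAAAGTCCAtttggaagca

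Cyp2c68: atcattgaaaCAAAGTCCAattggaagag

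Cyp2c69: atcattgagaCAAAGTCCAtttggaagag

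Cyp2c70: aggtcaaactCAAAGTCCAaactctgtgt

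Cyp3a11: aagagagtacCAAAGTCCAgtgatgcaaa

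Cyp3a16: aagagacgacCAAAGTCCAggtgatgcag

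Cyp3a41a: aagagacgacCAAAGTCCAggtgatgcag

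Cyp3a41b: aagagacgacCAAAGTCCAggtgatgcag

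Cyp8b1: agcctctgagCAAAGTCCAagggcaggaa

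The flanks show that 4 of the Cyp2c matches are near copies of one another, as are 3 of the Cyp3a matches. The flanks of Cyp3a11 resemble those of the other Cyp3a matches, with the bases after the motif shifted. The matches are thus not 11 separate cases. Levels behind them ranged widely. Cyp3a11 had a mean of 2428 FPKM in liver cytoplasm, Cyp2c70 one of 435 and Cyp8b1 one of 364. Cyp2c65, Cyp3a41a and Cyp3a41b, with the same letters, were listed at 0 in all 4 liver libraries. The coding sequences of Cyp3a41a and Cyp3a41b are 99.87% identical, and 95.2% and 95.0% identical to that of Cyp3a11. How shared reads were split is not given, so these zeros may not mean absent RNA.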

How the data were processed

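PolyA RNA of 8 libraries was used, 2 for each of 4 groups taken from the sample titles. The deposited FPKM values, 1 per gene and library, were made by the authors with TopHat and Cuffdiff on mm10, per the submitters' processing notes. Which versions, annotation, filters, strand setting and scaling were used is not given in the sources used here. On a log2 scale, FPKM + 1 was fitted by limma 3.58.1 under R 4.3.3 for every gene whose mean reached 1 FPKM, with two-sided p-values adjusted by Benjamini-Hochberg over all genes tested. Each tissue was fitted alone for nuclear against cytoplasmic, and all 8 libraries for the interaction and for tissue differences. The fits were tested on simulated data. Positions, transcripts and 50-base words came from GENCODE M21 (GRCm38, the build also called mm10), promoters from RefSeq, and identities from global alignment with Biopython 1.88. The value of 1 read was estimated from the steps of low FPKM. Genes were named by rule: those reaching 10 FPKM in the higher liver fraction and among the 10 most nuclear or 10 most cytoplasmic calls, the 5 highest of a liver fraction, those at 1 FPKM or more in MIN6, and the highest of each class. Other members named were chosen after their values were seen. Members of the families and lists were chosen with earlier results of these data known, so their counts are descriptions. Alternatives tried were another pseudocount, other filters and scalings, 1 fit of all libraries, a replicate block and each library left out.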

Additional observations from a re-analysis of the deposited data

Results flagged for a closer look

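Only 3 P450 genes could be tested for a difference of nuclear ratio between liver and MIN6, and Cyp2e1 is the 1 that was called. The liver ratio minus the MIN6 ratio was -5.305 on the log2 scale (limma adjusted p = 0.0124), with liver at -4.42 and MIN6 at 0.89. All 4 pairings of a nuclear with a cytoplasmic library of liver were below 0, while the MIN6 fractions overlapped. The MIN6 values are low, at 5.79 FPKM or less. Of all 5315 genes tested, 26.6% were called more nuclear in MIN6, and 1.19% after centring. The Cyp2e1 call was lost in some of the fits with 1 library left out. Liver and MIN6 nuclei were also prepared differently, so tissue and preparation cannot be told apart.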

How the results depend on the processing

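Rescaling to equal sums called 2141 genes nuclear and 562 cytoplasmic of all 12163 tested in liver. Counts of liver members called nuclear and cytoplasmic (3 and 38) became 7 and 21 after centring and 13 and 7 after such rescaling. They ranged from 0 to 4 and from 0 to 42 with 1 library left out, where leaving out either nuclear library gave 0 for the whole table. With 1 library of a fraction left, it is assumed to vary like the other group. The centred counts ranged from 0 to 17 and from 0 to 25 with 1 library left out, and a centred pseudocount of 0.1 gave 9 cytoplasmic. In MIN6 the count of nuclear calls (0) was 1 with a pseudocount of 0.1, without the filter and with the replicate block, 3 after centring or rescaling, and 0 to 1 with a library left out. A filter of 5 FPKM left no member to test in MIN6 or in the interaction. The single interaction call ranged from 0 to 1 with a library left out. In the cytoplasm, members higher in MIN6 numbered 0 on the deposited scale against 1. Among named genes, the sign changed on centring for Cyp4f13 (1.62), Cyp26b1 (1.71) and Cyp3a25 (1.23, not called), and rescaling to equal sums turned Cyp26b1 to 2.08, Cyp2d26 to 0.81, Cyp4f13 to 2.71, Cyp7a1 to 0.86, Cyp3a25 to 2.36, Cyp3a13 to 0.42, Cyp2d40 to 0.76, Cyp2d9 to 0.94, Cyp3a57 to 0.84, Cyp4a12b to 0.12 and Cyp2d10 to 0.56. Of those turned by rescaling, Cyp4f13 and Cyp3a25 were called nuclear and the others were not called. Cyp4a10 and Cyp4f17 kept their sign on rescaling and were called nuclear, at 3.28 and 3.51. In 12 of the 35 named genes the sign stayed but rescaling removed the cytoplasmic call. These were Cyp2a4, Cyp2b10, Cyp2e1, Cyp2f2, Cyp2j5, Cyp2r1, Cyp3a11, Cyp3a16, Cyp3a44, Cyp4f14, Cyp4v3 and Cyp8b1. The cause was not tested. Deviations of same-numbered libraries correlated at 0.0425 in liver and 0.0452 in MIN6, so the numbers were not taken to pair them. With the replicate block, 4 liver members were called nuclear and 39 cytoplasmic, Cyp4a14 being the added nuclear call (limma adjusted p = 0.0288). Libraries left out of the centred fit, and its other pseudocount, were chosen after the data were seen. Depth limits low cytoplasmic values, where a 0 may hide up to about 3 reads.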
